A study of Mus musculus with 4 samples.

Results

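The Eph receptors are the receptor tyrosine kinases that bind ephrins, ligands which are themselves held on the membrane of a neighbouring cell. The genes described here are 10 of this family that were measured in 4T1 cells: the receptor genes Epha1, Epha2, Epha4, Ephb2, Ephb3 and Ephb4 and the ligand genes Efna1, Efna4, Efnb1 and Efnb2. All 10 had a row among the 21840 genes of the deposited table. The list was chosen by the measured fall of Epha1 between these same rIL17 and PBS libraries, so for Epha1 it is given as values, without a p-value or interval, and its passing a threshold is no result.

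4T1 is an established mouse mammary carcinoma line, labelled as epithelial and wild type. The rIL17 group (2 libraries) was treated with recombinant IL-17A, a cytokine that acts on epithelial cells through the IL-17RA and IL-17RC chains, and the PBS group (2 libraries) with phosphate-buffered saline. The labels state neither dose nor duration, nor that replicate libraries stem from separate cultures. The spread behind each p-value may therefore be technical. Values are normalized counts, that is read counts per gene scaled by the authors with a method not given in the sources used here.

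Eph receptors fall into A and B classes. EphA receptors mainly bind ephrin-A ligands, which are anchored to the membrane by a lipid (GPI) tail, and EphB receptors mainly bind ephrin-B ligands, which span the membrane. Contact starts a forward signal in the receptor-bearing cell and a reverse signal in the ligand-bearing cell, and both act on the actin cytoskeleton, adhesion and the sorting of cells into compartments. In mammary epithelium and its tumors Epha2, Ephb4, Efna1 and Efnb2 have been the most studied members, and Ephb4 and Efnb2 are also known as markers of veins and arteries.

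The libraries held summed normalized counts of 18005398 and 17767101 in rIL17 and 17631228 and 17413365 in PBS. The treatment was visible in Lcn2, encoding lipocalin-2, which rose 3.36-fold (limma adjusted p = 0.000314), and in Il6, which rose 8.58-fold (limma adjusted p = 0.0165). Il6 was low in PBS, at 8.83 and 8.95 normalized counts, against 81.4 and 71.2 in rIL17. Its transcript has a GC content of 39.3%. The Il6 log2 fold change was 2.96, and 2.39 with a correction for GC content. Of 9 epithelial markers 8 had a row, and their summed level was 45758 to 47812 in rIL17 and 53749 to 57978 in PBS, mostly from the keratin genes Krt8 and Krt18. Endothelial markers, which bear on Ephb4 and Efnb2, summed to 154 to 182 in rIL17 and 186 to 188 in PBS, nearly all from Egfl7, while the defining genes Cdh5 and Tek stayed at 2.01 or less in every library. Ptprc, the pan-leukocyte gene, had 3.02 and 2.01 in rIL17 and was at 0 in both PBS libraries. The 4 leukocyte markers with a row of 9 listed summed to 25.1 to 49.3 in rIL17 and 18.9 to 19.6 in PBS, and the 5 fibroblast markers with a row of 7 to 2967 to 2971 in rIL17 and 2444 to 2554 in PBS, nearly all from Pdgfra. Fewer cells of a type and less RNA per cell cannot be told apart in these bulk libraries. The part of these marker levels in the results was not tested.

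The 2 promoters shown are those of Epha1, whose RNA differed most among the 10, and of Epha2, the most abundant receptor (GRCm38.p6, 5′ to 3′, from RefSeq, 250 bases before to 50 after the start). The Epha1 window is chr6:42373219-42373518 on the minus strand and the Epha2 window chr4:141300971-141301270 on the plus strand. Capitals mark the GC box letters GGGCGG and the E-box letters CAGGTG, read on both strands.
Epha1: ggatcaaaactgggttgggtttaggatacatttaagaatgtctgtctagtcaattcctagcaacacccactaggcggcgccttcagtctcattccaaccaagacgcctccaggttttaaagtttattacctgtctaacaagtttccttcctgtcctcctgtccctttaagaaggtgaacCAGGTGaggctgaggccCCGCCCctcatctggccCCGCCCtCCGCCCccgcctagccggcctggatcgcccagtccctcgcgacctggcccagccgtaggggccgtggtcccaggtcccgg
Epha2: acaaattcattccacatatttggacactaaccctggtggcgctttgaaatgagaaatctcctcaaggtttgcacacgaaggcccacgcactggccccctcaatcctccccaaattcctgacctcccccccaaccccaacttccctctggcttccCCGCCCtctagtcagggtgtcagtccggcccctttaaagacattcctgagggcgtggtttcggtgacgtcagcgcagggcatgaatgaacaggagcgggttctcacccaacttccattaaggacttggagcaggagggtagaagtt
The Epha1 window held 3 matches to GGGCGG and 1 to CAGGTG, and the Epha2 window held 1 match to GGGCGG and 0 to CAGGTG. A promoter was found for all 10 genes (11 windows, as Efna1 has more than 1). GGGCGG was present for 7 of 10 genes, against 35.7% of all 32851 promoter windows of this length, and CAGGTG for 3 of 10 (Epha1, Ephb2 and Efnb2), against 20.2%. These counts are per gene, while the shares of all windows are per window. The 11 windows ran from 54.7% to 72.3% GC, against a median of 52.7% over all windows. The part of GC content in the motif counts was not tested. The letters CCAAT were present for 6 of 10 (37.4% of all windows) and TATAAA for 1 of 10 (13.6%). The C/EBP letters TTGCNNAA and an NF-kB consensus were present in 0 of 10 (10.8% and 0.411% of all windows), which says only that these letters are not in these windows. The capitals of the 2 motifs do not overlap in the Epha1 window, and a match is a description of letters, not of a bound site.

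Epha1 RNA in rIL17 stood at 0.523 times its PBS level. Epha1 (ENSMUSG00000029859, mm10 chr6:42358487-42373268, minus strand) encodes the EphA1 receptor of epithelial cells, which binds ephrin-A1. It had 279 and 283 normalized counts in the rIL17 libraries and 536 and 540 in the PBS libraries. Neither rIL17 library came near a PBS library, and the libraries of each group were close together. The means were 281 ± 2.37 in rIL17 and 538 ± 3.01 in PBS (SD, n = 2 each). The log2 fold change of rIL17 over PBS was -0.93, on the log2(normalized count + 1) scale used throughout. These SDs were smaller than the square roots of the means, 16.8 in rIL17 and 23.2 in PBS, which approximate the counting error alone, so the closeness of the replicates understates the uncertainty of each value. The summed epithelial markers were also lower, at 45758 to 47812 in rIL17 and 53749 to 57978 in PBS, mostly from Krt8 and Krt18. Both rIL17 libraries were below both PBS libraries for 6 of the 8 markers, as they were for 24.7% of all genes tested, and 0 markers passed in limma. For Krt19 and Epcam the groups overlapped (log2 fold changes 0.05 and -0.02).

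The 3' end of Epha1 overlaps another gene. Zyx, encoding the focal adhesion protein zyxin, lies on the plus strand and shares 1727 bases of genomic span with Epha1 (42358487 to 42360213). In exons the overlap is 236 bases, or 6.01% of the annotated exon length of Epha1. Zyx had 4028 and 4363 normalized counts in rIL17 and 5159 and 5562 in PBS, far more than Epha1. Its log2 fold change was -0.35 (95% confidence interval -0.52 to -0.18), and it did not pass in limma (adjusted p = 0.102). The library kit marks strand, but the sources used here do not say whether the counting used it, so the part of Zyx reads in the Epha1 counts was not tested. The other overlapping transcript, the antisense gene 2010310C07Rik, shares no exon base with Epha1 and averaged 1.24 normalized counts. Of the 4 other genes tested within 100 kb of Epha1, 2 had lower means in rIL17 (Zyx, and Fam131b with overlapping groups) and the remaining genes, Casp2 and Clcn1, had log2 fold changes of 0.14 and 0.04.

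**Figure D1:**
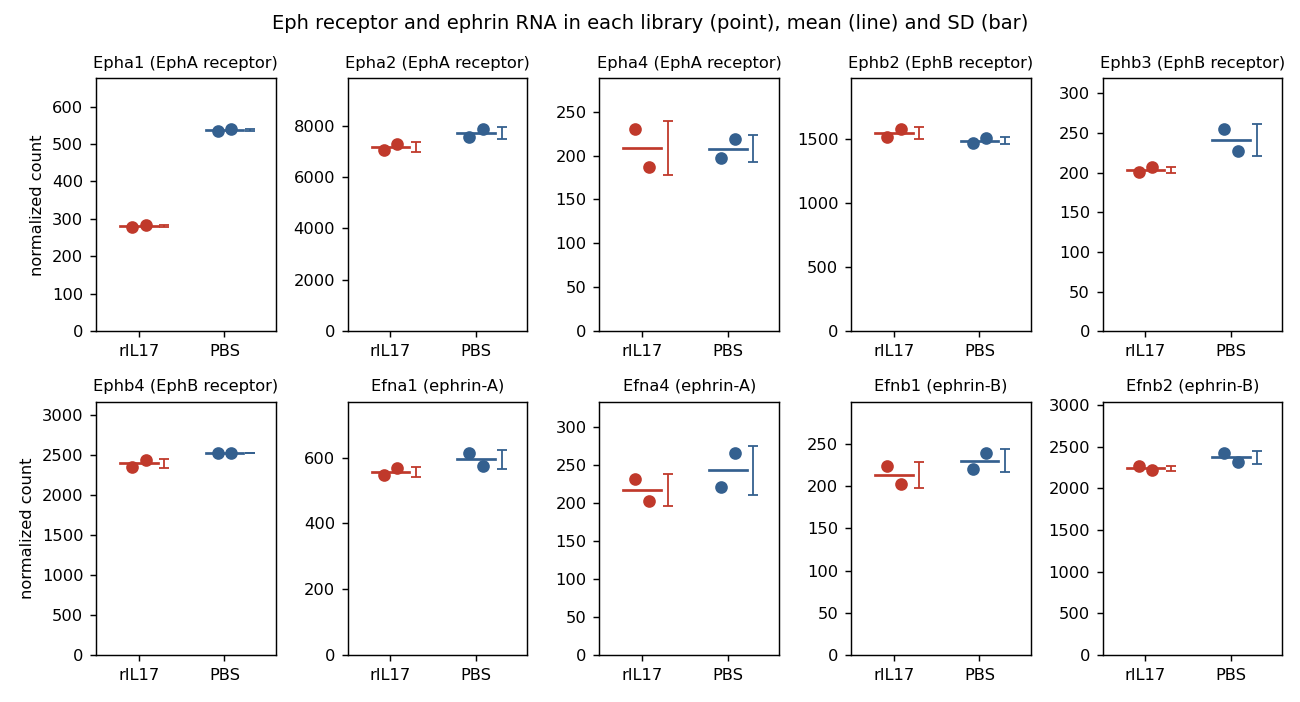
Normalized counts of the 10 genes in each library (points, vertical axis from 0), with rIL17 left of PBS; lines are means and bars SD of 2 libraries. Epha1 has 279 and 283 in rIL17 and 536 and 540 in PBS; in the other panels the groups lie close to each other or overlap.

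Among the other receptors the groups lay much closer. Epha2, an ephrin-A receptor widely expressed in epithelial tumors, was the most abundant, with 7047 and 7305 normalized counts in rIL17 and 7553 and 7874 in PBS. Both rIL17 libraries were below both PBS libraries, but by only 6.96% at the mean (log2 fold change -0.10, 95% confidence interval -0.25 to 0.04). Epha4, a receptor that binds ephrins of both classes, had 230 and 187 in rIL17 and 197 and 219 in PBS, so the groups overlapped. Its mean was 208 in both groups and its log2 fold change -0.003, with a wide interval (-0.37 to 0.36). The sign changed without rIL17 replicate 2 (0.15) and without PBS replicate 2 (0.07). Relative to Epha2 in the same library, Epha1 stood at a log2 ratio of -4.66 and -4.69 in rIL17 and -3.82 and -3.87 in PBS.

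The EphB receptors gave both signs. Ephb4, a partner of ephrin-B2, had 2356 and 2441 in rIL17 and 2526 and 2533 in PBS (log2 fold change -0.08, 95% confidence interval -0.23 to 0.07). Ephb2, known from the intestinal crypt and from axon guidance, had 1518 and 1582 in rIL17 and 1472 and 1510 in PBS. It was the 1 listed gene with a log2 fold change above 0 (0.06, 95% confidence interval -0.11 to 0.22). Ephb3, which acts beside Ephb2 in the crypt, had 201 and 207 in rIL17 and 255 and 227 in PBS. Its groups did not overlap, yet the PBS libraries differed from each other by more than the lower one did from the nearer rIL17 library, and its interval held 0 (log2 fold change -0.24, 95% confidence interval -0.54 to 0.07). Among the 9 genes other than Epha1 this was the log2 fold change farthest from 0.

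The 4 listed ephrins were all slightly lower in rIL17. Efna1, the ligand of Epha1 and Epha2, had 546 and 568 in rIL17 and 615 and 574 in PBS (log2 fold change -0.09, 95% confidence interval -0.31 to 0.12). Efna4, another GPI-anchored ligand, had 232 and 203 in rIL17 and 221 and 266 in PBS, and the groups overlapped (log2 fold change -0.16, 95% confidence interval -0.52 to 0.20). An antisense gene, 4731419I09Rik, covers 10.5% of the Efna4 exon length but averaged 8.67 normalized counts. Efnb1, an X-linked transmembrane ligand, had 224 and 203 in rIL17 and 221 and 240 in PBS, again overlapping (log2 fold change -0.11, 95% confidence interval -0.42 to 0.20). Efnb2, the ligand of Ephb4, had 2262 and 2214 in rIL17 and 2427 and 2312 in PBS (log2 fold change -0.08, 95% confidence interval -0.24 to 0.07).

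In the limma fit over all 13479 genes with a mean of at least 10, 103 genes passed at an adjusted p below 0.05, or 0.764% of those tested, 80 higher (0.594%) and 23 lower (0.171%) in rIL17. With a correction for GC content 302 passed, 166 higher and 136 lower. Fits with 1 library left out take the spread of that group from the other group's replicates. The replicates differed more in PBS than in rIL17 (mean chi-square per gene 16.1 and 4.11). Counts of genes passing are therefore not read from such fits. Among the 10 listed genes 1 passed, Epha1, for which the list was made (0 with no filter on low values), and nothing is read from that count. Of the other 9, 0 passed, 0 had an unadjusted p below 0.05, and 0 passed in limma-voom; their smallest adjusted p was 0.415. The intervals above give the size of difference these 2 libraries per group leave possible. For Epha2, Ephb2, Ephb4 and Efnb2 the bounds lay within 0.25 of 0. The lower bounds reached -0.37 for Epha4, -0.54 for Ephb3, -0.52 for Efna4, -0.42 for Efnb1 and -0.31 for Efna1. Both rIL17 libraries were below both PBS libraries for 6 of 10 listed genes (Epha1, Epha2, Ephb3, Ephb4, Efna1 and Efnb2), as they were for 24.7% of all genes tested, and above them for 1 (Ephb2), as for 25.4%. The median log2 fold change was -0.10 over the 10 and -0.09 over the 9 without Epha1, against -0.002 over all genes tested. With the GC correction the median was -0.04 both over the 10 and over the 9, against -0.01 over all genes; 9 of the 10 transcripts have a GC content above 50%, and genes of 50% to 60% had a median of -0.06 without it. Under that correction Epha2 stood at -0.04, Ephb4 at -0.02, Efna1 at -0.03, Efnb2 at -0.03, and Ephb2 at 0.12. These shares and medians use the contrast that chose the list and are a description.

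**Figure D2:**
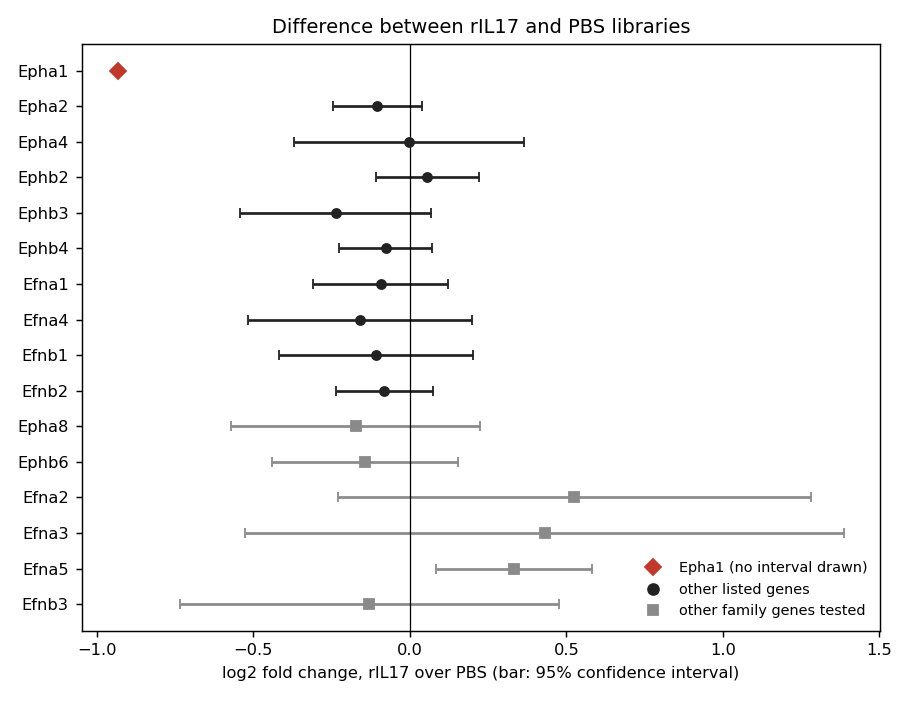
Log2 fold change of rIL17 over PBS (horizontal axis) for the 10 listed genes and the 6 other Eph and ephrin genes tested; bars are 95% confidence intervals from limma, drawn for all but Epha1. Epha1 lies at -0.93, the intervals of the other 9 listed genes all include 0, and that of Efna5 runs from 0.08 to 0.58.

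Set on a common scale by dividing by exon length, the members covered a wide range of levels. Epha2 was highest at 1508 and 1563 normalized counts per kb in rIL17 and 1616 and 1685 in PBS, and Ephb4 was next at 508 to 546 over the 4 libraries. Efnb2 (323 to 354 per kb) and Efna1 (298 to 336) followed with overlapping ranges, Efnb2 being the higher in each of the 4 libraries. Efna4 lay at 127 to 167 and Ephb2 at 117 to 125 per kb, so these ranges nearly touched. Efnb1 lay at 58.7 to 69.4, Ephb3 at 30.3 to 38.4 and Epha4 at 23.2 to 28.6 per kb. Epha1 was the gene whose place in this order depended on the group, with 71.1 and 72.0 per kb in rIL17, just above Efnb1, and 136 and 137 in PBS, above Ephb2. The length used is that of all annotated exons merged, which understates genes with long rarely used exons, such as Ephb2 with 12608 bases.

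Summed over the 6 receptors, the level was 2266 and 2341 per kb in rIL17 and 2476 and 2549 in PBS. Epha2 made up 66.5% and 66.8% of that receptor level in rIL17 and 65.3% and 66.1% in PBS. Ephb4 made up 21.4% to 22.5% over the 4 libraries. Epha1 was a small share throughout, 3.14% and 3.08% in rIL17 and 5.51% and 5.39% in PBS. There was thus 21.2 and 21.7 times as much Epha2 as Epha1 per kb in rIL17, against 11.8 and 12.3 times in PBS. The 4 listed ephrins summed to 838 and 819 per kb in rIL17 and 892 and 887 in PBS. The ratio of the 6 listed receptors to these 4 ephrins, 2.70 and 2.86 in rIL17 and 2.78 and 2.87 in PBS, overlapped between the groups. These sums leave out the unlisted genes, such as Efna5 (230 per kb in rIL17 and 184 in PBS) and Ephb6 (59.7 and 66.0). The ratio is therefore not that of the whole family. Within the 4 listed ephrins, Efnb2 held 39.4% and 39.5% in rIL17 and 39.7% and 38.0% in PBS.

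**Figure D3:**
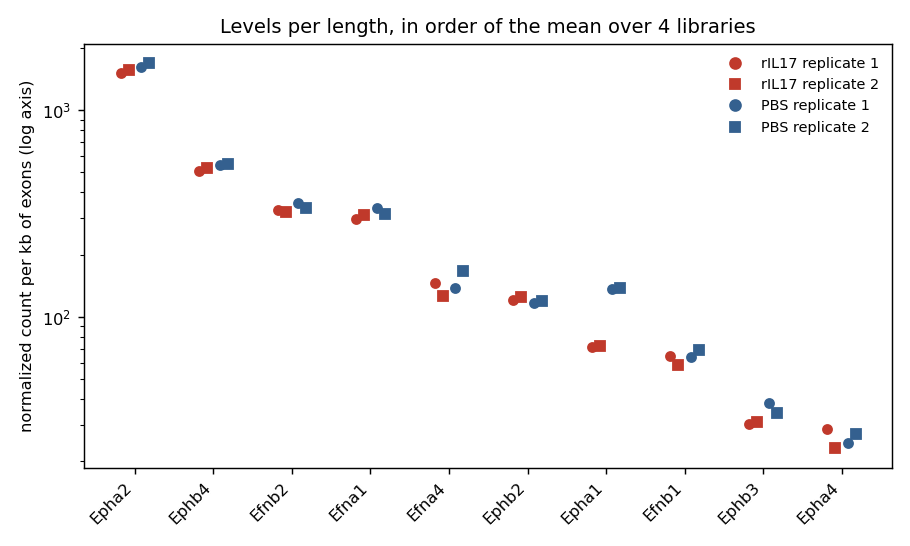
Normalized counts per kb of merged exons (log axis) in the 4 libraries, genes in order of their mean. Epha2 is highest at 1508 to 1685 per kb and Epha4 lowest at 23.2 to 28.6; Epha1 is the gene whose rIL17 points (71.1 and 72.0) lie well apart from its PBS points (136 and 137).

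Of the 12 Eph and ephrin genes outside the list, 7 had a row. Epha3, Epha5, Epha6, Epha7 and Ephb1, which are best known from the nervous system, were not analysed here, and Epha10 had 1.96 normalized counts in PBS replicate 1 and was listed at 0 in the other 3 libraries. Efna5, a GPI-anchored ligand best known from brain wiring, had 922 and 935 normalized counts in rIL17 and 806 and 675 in PBS, above both PBS libraries but with the PBS libraries far apart. Its log2 fold change was 0.33 (95% confidence interval 0.08 to 0.58) and did not pass in limma (adjusted p = 0.212). Per kb it stood at 230.2 in rIL17 and 184 in PBS, between Efna1 and Efna4. Its transcript has a low GC content, 44.8%, and across genes of 40% to 50% GC PBS replicate 2 lay below PBS replicate 1 by 0.09 (log2, median of 6168 genes); with a correction for GC content the Efna5 value was 0.23, and without PBS replicate 2 it was 0.20. Without PBS replicate 1 it was 0.46.

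The other 5 detected family genes had values that did not pass. Ephb6, whose kinase domain is inactive, had 215 and 236 in rIL17 and 240 and 258 in PBS. Epha8 had 89.5 and 87.3 in rIL17 and 101 and 98.4 in PBS. Efnb3, a transmembrane ligand, had 37.2 and 33.1 in rIL17 and 36.3 and 40.8 in PBS, so its groups overlapped. Efna2 had 33.2 and 25.1 in rIL17 and 18.6 and 20.9 in PBS, and Efna3 had 17.1 and 13.0 in rIL17 and 11.8 and 9.94 in PBS, where a few reads decide the ratio. An antisense gene, Gm15998, covers 14.1% of the Efna3 exon length and averaged 22.4 normalized counts, more than Efna3 itself, so the Efna3 count is uncertain.

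Genes that act beside Eph receptors and ephrins were read from the same fit. Of 78 in 4 lists, 72 were tested, 35 higher and 37 lower in rIL17, with a median log2 fold change of -0.005 against -0.002 over all genes tested. In limma 0 passed, against 0.764% of all genes tested, and 12 of 72 had an unadjusted p below 0.05, against 16.0%. With limma-voom 1 passed (Stat3), against 1.47% of all genes tested. The adaptors and kinases next to the receptor (22 of 25 tested) had a median of -0.02. Among them Bcar1, the scaffold p130Cas, had 1777 and 1849 in rIL17 and 2166 and 2405 in PBS (log2 fold change -0.33, limma adjusted p = 0.128). The Src family kinase gene Yes1 had 880 and 682 in rIL17 and 556 and 331 in PBS (0.85, limma adjusted p = 0.188), and Dok1, an adaptor that binds RasGAP, had 840 and 863 in rIL17 and 959 and 1060 in PBS (-0.24, limma adjusted p = 0.245). Yes1 varied by more within PBS than Bcar1 or Dok1 did. Its GC content is 41.1%, and with the GC correction its value was 0.48. Without PBS replicate 2 it was also 0.48, and without PBS replicate 1 it was 1.22.

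Among genes of ephrin reverse signalling (13 of 15 tested, median -0.05), Stat3, a transcription factor that also relays cytokine signals, had 2664 and 2695 in rIL17 and 2052 and 1917 in PBS. Its log2 fold change was 0.43 (SE 0.07, limma adjusted p = 0.0550), the smallest adjusted p among the partners, just above the threshold. The ephrin-binding PDZ protein gene Sdcbp, encoding syntenin, had 3324 and 3132 in rIL17 and 2786 and 2416 in PBS (0.31), and its value was -0.02 with the GC correction. Pdzrn3, a PDZ-domain ubiquitin ligase gene, had 1356 and 1306 in rIL17 and 1080 and 1141 in PBS (0.26). The lowest value of this list, -0.93, belonged to Cldn4, encoding a tight junction protein, at few counts (7.04 and 11.0 in rIL17 and 19.6 and 15.9 in PBS, limma adjusted p = 0.348).

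Proteases and phosphatases that cut or switch off the complex (14 of 15 tested) had a median of -0.02. Adam8, a membrane metalloprotease gene, had 948 and 928 in rIL17 and 680 and 713 in PBS (log2 fold change 0.43, limma adjusted p = 0.0832). The receptor phosphatase gene Ptprj had 1018 and 1110 in rIL17 and 832 and 806 in PBS (0.38, limma adjusted p = 0.114). Rhbdl2, an intramembrane protease gene known in human cells to cut ephrin-B3, had 297 and 388 in rIL17 and 494 and 562 in PBS (-0.63, limma adjusted p = 0.139). With the GC correction 5 of 72 partners passed in limma (Stat3, Adam8, Ptprj and Pdzrn3 higher, Nck1 lower), against 2.24% of all genes tested. The count of 0 thus depended on that correction. The Nck1 log2 fold change was -0.56 with the correction but 0.02 without it (limma adjusted p = 0.956). Nck1 had 632 and 577 in rIL17 and 697 and 507 in PBS, so its groups overlapped.

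The receptor tyrosine kinases outside the Eph family gave a median log2 fold change of 0.02 over 22 tested of 41, with 14 higher and 8 lower in rIL17. In limma 0 passed, 6 of 22 had an unadjusted p below 0.05, against 16.0% of all genes tested, and limma-voom called 0. Their values ran from -0.65 to 0.64. The lowest was Mertk, a receptor for the clearance of dying cells, with 88.5 and 113 in rIL17 and 150.1 and 166 in PBS (limma adjusted p = 0.176). Pdgfra, a receptor for platelet-derived growth factors, had 2855 and 2862 in rIL17 and 2328 and 2462 in PBS (0.26, limma adjusted p = 0.152), and the kinase-like gene Styk1 had 125 and 105 in rIL17 and 86.3 and 67.6 in PBS (0.58).

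**Figure D4:**
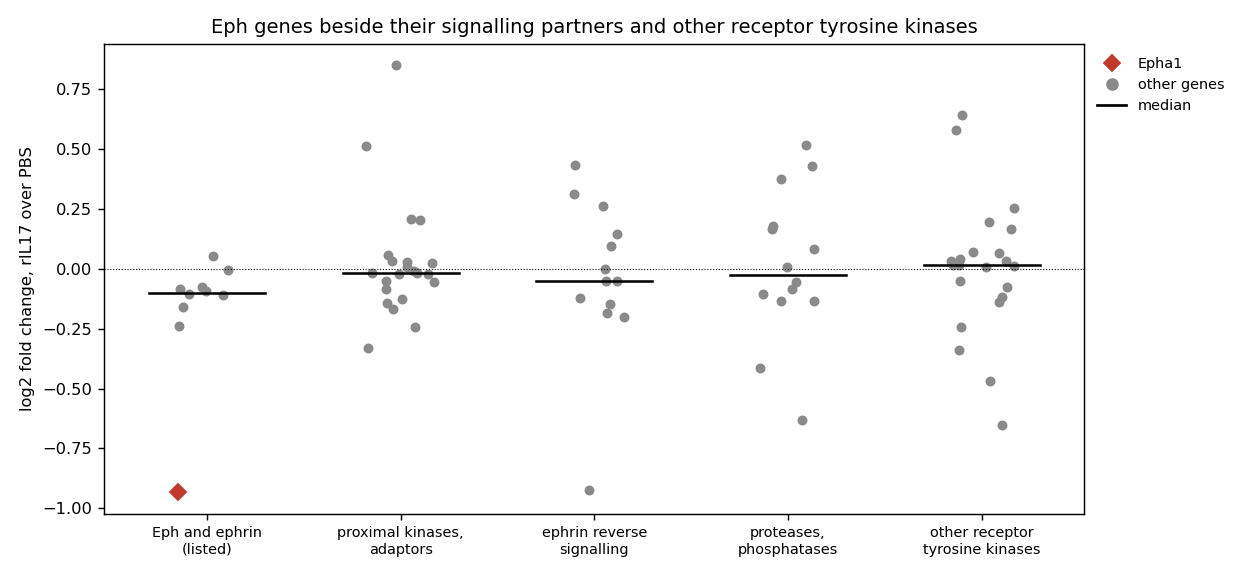
Log2 fold change of rIL17 over PBS (vertical axis) for each tested gene of the Eph and ephrin list, 3 partner lists and the other receptor tyrosine kinases, with black lines at the medians. Epha1 is the diamond at -0.93; the list medians lie between -0.10 and 0.02.

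The genes whose profile over the 4 libraries lay closest to that of Epha1 were sought among 10267 others with a mean of at least 100, by Euclidean distance between log2 values after each gene's own mean was removed. With 4 libraries this measure mostly ranks genes by how near their rIL17 difference is to that of Epha1. The 5 closest were Gbp3, an interferon-induced GTPase gene (distance 0.148), Irf7 (0.167), Apol9b (0.175), Irf5 (0.195) and Nmnat2, which encodes an enzyme of NAD synthesis (0.229). Irf7 and Irf5 encode transcription factors of the interferon system. Gbp3 had 110 and 105 normalized counts in rIL17 and 194 and 184 in PBS, and Irf7 had 119 and 137 in rIL17 and 249 and 230 in PBS. Apol9b, an apolipoprotein L gene, had 399 and 404 in rIL17 and 660 and 718 in PBS, but it has a near-identical copy, Apol9a, and its count is uncertain. Irf5 had 114 and 115 in rIL17 and 186 and 200 in PBS, and Nmnat2 had 115 and 115 in rIL17 and 185 and 191 in PBS. In all 5 every rIL17 value was lower than every PBS value, which the choice by likeness to Epha1 largely fixes.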

How the data were processed

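RNA libraries were made with a directional kit, per the labels' protocols. CASAVA, HISAT2 2.0.5, featureCounts 1.5.0-p3 and build mm10 are named in the submitters' processing notes; the annotation, strand setting and scaling tool: not given in the sources used here. The deposited values are a normalized signal, never negative and not whole; in each library all lay within 0.1 of a whole multiple of 1 step (0.981 to 1.01), as scaled counts would be. Count models were not used. Genes with a mean of at least 10 over the 4 libraries were tested with limma 3.58.1 (R 4.3.3) with a mean-variance trend on log2(value + 1), Benjamini-Hochberg adjusted over all genes. This filter ignores the groups. The fits were also run on simulated data with the same spread in both groups and no shift with GC content. That simulation cannot check them for the unequal spread and GC-linked shifts seen here. Symbols, exons and GC content came from GENCODE M21 (mm10; 21833 of 21840 rows matched). Members, lists and tests were chosen with earlier results of these data known. Named were all members, detected relatives, the 3 partners per reported list with the smallest p in limma, the 5 profiles closest to Epha1, and Lcn2 and Il6. Zyx, Fam131b, Casp2, Clcn1, overlapping genes, Nck1, Cldn4 and markers were named after their values were seen. Protein sequences were not used here, and 1 of the 4 partner lists enters the summed counts but is not reported here by itself. Alternatives were scaling, filters, pseudocount, limma-voom, GC correction, the replicate block and each library left out.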

Additional observations from a re-analysis of the deposited data

How the results depend on the processing

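The Epha1 log2 fold change, -0.93, was -0.98 with upper-quartile scaling, -0.96 with total-count scaling and with limma-voom (-0.963 and -0.964), and -0.87 with the GC correction, alone or with the replicate block (-0.867). The Epha1 value kept its sign in 15 of 15 settings, as did those of 8 of the other 9 genes, and Epha4 kept its sign in 13. These settings include the main fit and are re-fits of the same 4 libraries. For Epha1 the filters and the replicate block returned -0.93 again, as they do not act on the log2 fold change. A kept sign is therefore no independent support. When 1 library was left out, Efna4 (-0.16) ran from -0.30 to -0.03, Efnb1 (-0.11) from -0.18 to -0.04, Ephb3 (-0.24) from -0.32 to -0.15, Efna1 (-0.09) from -0.14 to -0.04, and Epha4 from -0.15 to 0.15. In the fits with all 4 libraries the count of listed genes that passed was 1, and 0 with no filter and with a filter of a mean of 1 in 1 group. A group left with 1 library is assumed to vary like the other group. The groups did not vary alike, as the mean chi-square per gene between replicates was 4.11 in rIL17 and 16.1 in PBS. For the listed genes only log2 fold changes are therefore given for fits with 1 library left out. For the other gene sets the counts of genes passing in such fits are printed as ranges, and nothing is read from them. Over all genes, 103 passed, against 174 with upper-quartile scaling, 163 with total-count scaling, 0 with no filter, 0 with a mean of 1 in 1 group, 198 with limma-voom, 302 with the GC correction, and 1 to 2158 when 1 library was left out. The share of calls that were higher was 77.7%, and 55.0% with the GC correction. The partners that passed numbered 0, against 1 with total-count scaling and 1 with limma-voom (Stat3 in both), 5 with the GC correction and 0 to 14 when 1 library was left out; the other receptor tyrosine kinases numbered 0, and 0 to 3 without 1 library. With the replicate block, 1124 genes passed (8.34%), among them 10 of 72 partners and 1 of 22 other receptor tyrosine kinases. With the GC correction and the replicate block 388 genes (2.88%) and 6 of 72 partners passed. Libraries of the same replicate number deviated together weakly (r = 0.126 across 13479 genes), and nothing in the labels says that a number pairs libraries. Tests with edgeR and DESeq2 were not run on these scaled values. With counts near 200 (Epha4, Ephb3, Efna4 and Efnb1), counting error alone is about 14.3 to 15.6 counts. The cause of the shifts between settings was not tested.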

Other observations

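Efna1, Efna3 and Efna4 lie beside each other on mouse chromosome 3, with Adam15, encoding a membrane metalloprotease, next to Efna4. Of the 16 other genes tested within 100 kb of Efna4, Efna1 and Efna3 included, 12 had lower log2 values in rIL17, and the smallest limma adjusted p was 0.415 (Pygo2, log2 fold change -0.13). Over all 13479 genes tested, 6796 had a log2 fold change below 0. Adam15 had 1314 and 1328 normalized counts in rIL17 and 1318 and 1350 in PBS, a log2 fold change of -0.01 with a 95% confidence interval of -0.18 to 0.15. Shc1, an adaptor that also lies in this stretch and binds receptor tyrosine kinases, had 3587 and 3738 in rIL17 and 3460 and 3694 in PBS (0.03, 95% confidence interval -0.12 to 0.19), so its groups overlapped.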
